A study of Mus musculus with 4 samples.

Results

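The 10 genes described here encode GTPases that cells make in response to interferon-gamma. They are the guanylate-binding proteins Gbp2, Gbp3, Gbp4, Gbp5 and Gbp7 and the immunity-related GTPases Iigp1, Irgm1, Irgm2, Igtp and Tgtp2. They were taken by symbol, and all 10 were found among the 31053 genes of the series. Their level is given as UMIs (unique molecular identifiers, each standing for 1 captured RNA molecule) per 1000000 UMIs (CPM), summed over the cells of a cell type in each library.

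Interferon-gamma, released mainly by T and NK cells, binds the receptor made of Ifngr1 and Ifngr2. The kinases Jak1 and Jak2 pass the signal on towards the nucleus, where target genes carry GAS sites and ISRE sites, the latter bound by interferon regulatory factors such as Irf1. Guanylate-binding proteins and immunity-related GTPases are among the most strongly induced products of this pathway, and they assemble on the vacuoles of intracellular pathogens. Irgm1, Irgm2 and Igtp (Irgm3) belong to the regulatory branch of the immunity-related family that sits on the cell's own membranes, whereas Iigp1 (Irga6) and Tgtp2 belong to the effector branch.

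Mononuclear cells were isolated from the livers of C57BL/6 mice aged 8 to 10 weeks and sequenced as 4 libraries, 1 per group. The Naïve library came from mice that received no concanavalin A (ConA), a lectin that activates T cells and brings on hepatitis. The other libraries were made 24 h after ConA, from mice then treated with vehicle (ConA+Veh), with 10 µg/kg of the aryl hydrocarbon receptor (AhR) ligand TCDD (ConA+TCDD), or with the AhR ligand FICZ (ConA+FICZ). The question taken up here was how libraries from 2 ligands of the same receptor differ in the liver's immune cells in ConA hepatitis. The paper describes the Naïve, ConA+Veh and ConA+TCDD libraries and does not mention FICZ. The FICZ dose and the number of mice behind a library are not given in the sources used here. With 1 library per group no test between conditions exists, so every interval below is an exact 95% interval that covers counting error only, and differences between mice were not measured.

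The libraries held from 1880 cells (ConA+TCDD) to 2779 (ConA+Veh), with medians from 2161 UMIs per cell (Naïve) to 3984 (ConA+Veh). Between 4 and 15 cell barcodes were shared by any pair of libraries. The Y-linked genes Ddx3y, Eif2s3y, Kdm5d and Uty had 0 UMIs in every library. Cells were gated on marker genes, and 52% of Naïve cells but 21.9% to 30.6% of the cells of the ConA libraries fell in the B gate, where Cd79a was found in 88.8% to 99.4% of cells. The T gate had Cd3d in 87.5% to 95.3% of its cells. The ConA+TCDD library was thin in mononuclear phagocytes (35 cells) and endothelial cells (8 cells), and 25.9% of its cells met no gate, against 10.7% to 15.5% elsewhere. The ConA+FICZ library stood apart in hepatocyte RNA: 187 of its cells passed the hepatocyte gate, and in its B gate the 6 hepatocyte markers summed to 214 CPM, against 1.88 to 65.6 CPM in the others.

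Of the 10 genes, 8 had an entry in the RefSeq promoter table (GRCm38.p6), which holds 250 bases before and 50 bases after each start site. Gbp4 and Iigp1 had none. These windows were searched on both strands for the GAS letters TTCNNNGAA and the ISRE, a pair of GAAA separated by any 2 bases and the site of interferon regulatory factors. All 8 held an ISRE and 5 held a GAS, whereas 3.44% of the 32851 promoters in the table held an ISRE, 8.3% a GAS and 0.454% both. A match is a description of letters and not evidence of binding. The stretches below lie before the RefSeq start site, which for Gbp2, Irgm1 and Irgm2 falls inside the GENCODE gene span given further on. They show where the motif letters, in capitals, sit in the 6 genes that the results turn on most.
Gbp2, chr3:142620592-142620625, plus strand: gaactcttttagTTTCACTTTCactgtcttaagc
Gbp7, chr3:142530218-142530304, plus strand: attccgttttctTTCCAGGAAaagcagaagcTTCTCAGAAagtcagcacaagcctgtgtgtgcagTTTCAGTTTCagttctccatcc
Irgm1, chr11:48871423-48871462, minus strand: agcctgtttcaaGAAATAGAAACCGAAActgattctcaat
Igtp, chr11:58199499-58199543, plus strand: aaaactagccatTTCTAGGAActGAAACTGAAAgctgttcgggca
Irgm2, chr11:58214890-58214934, plus strand: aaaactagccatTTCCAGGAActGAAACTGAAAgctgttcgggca
Tgtp2, chr11:49064261-49064305, minus strand: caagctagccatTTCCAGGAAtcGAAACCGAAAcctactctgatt

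Igtp, Irgm2 and Tgtp2 carried a GAS directly followed by an ISRE. The Igtp and Irgm2 stretches were identical at 44 of 45 bases, Irgm2 and Tgtp2 at 33 and Igtp and Tgtp2 at 32. Gbp2, Gbp3 and Irgm1 held an ISRE but no GAS in the window, and Gbp3 and Irgm1 each held a pair of overlapping ISREs.

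The genes lie in clusters. In GENCODE vM21 (GRCm38), Gbp5 (142493978 to 142522344), Gbp7 (142530342 to 142550149), Gbp3 (142560026 to 142573209) and Gbp2 (142620602 to 142638008) stand side by side on the plus strand of chromosome 3. Gbp4 is on the minus strand of chromosome 5 (105115767 to 105139586) and overlaps Gbp8 and Gbp9 on the same strand. Irgm1 (48861968 to 48871683) and Tgtp2 (49057194 to 49064206) are on the minus strand of chromosome 11, and Igtp (58199556 to 58207591) and Irgm2 (58199618 to 58222782) overlap on its plus strand. All are protein coding. Values of Gbp4, Igtp, Irgm2 and Tgtp2, whose reads may be shared with these neighbours or, for Tgtp2, with the near-identical Tgtp1, are therefore less certain than the others.

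The summed level of the 10 genes followed the cell type. In ConA+Veh it was 3345 CPM in endothelial cells (95% interval 3131 to 3569), 1399 in neutrophils (1284 to 1522), 752 in mononuclear phagocytes (703 to 803), 304 in NK cells (265 to 348), 285 in B cells (269.9 to 301) and 207 in T cells (197 to 218). NK and B cells overlapped in this order, as did B cells with several smaller gates. In Naïve the neutrophils came before the endothelial cells, at 3246 and 2170.2 CPM, and the B cells were lowest of these gates, at 202 CPM. The lymphocytes, which include the cells that make interferon-gamma, thus lay below the neutrophils, phagocytes and endothelial cells in all 4 libraries.

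**Figure D1:**
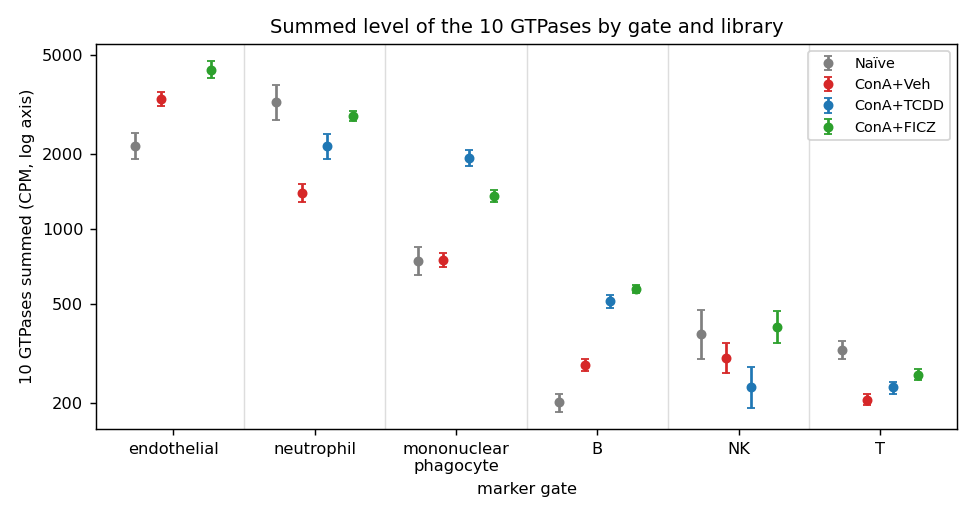
Summed level of the 10 GTPases (CPM, log axis) in 6 marker gates, with a point per library and its exact 95% Poisson interval, which covers counting error only; gates of fewer than 20 cells in a library are left out. In B cells the points climb from 202 CPM (Naïve) to 577 CPM (ConA+FICZ), in T cells Naïve is highest at 328 CPM, and in neutrophils and phagocytes both ligand libraries lie above ConA+Veh.

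Different members led in different cells. UMIs count captured ends of molecules, and capture may differ between genes, so the shares that follow compare cell types for a gene rather than genes with each other. Gbp2, which coats pathogen vacuoles, made up 48.6% to 58.2% of the family's UMIs in neutrophils and 33.5% to 46.2% in phagocytes, but 9.76% to 20.7% in T cells. Igtp took 25% to 29.9% in T cells and 5.7% to 13.7% in neutrophils. Iigp1 took 23.8% to 31.2% in endothelial cells, whereas its share of the neutrophil UMIs was at most 1.02%. Gbp7, a guanylate-binding protein tied to the oxidative response of phagocytes, made up 23% to 26.6% in the NK cells of the ConA libraries, against 9.56% to 14.4% in their T cells.

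**Figure D2:**
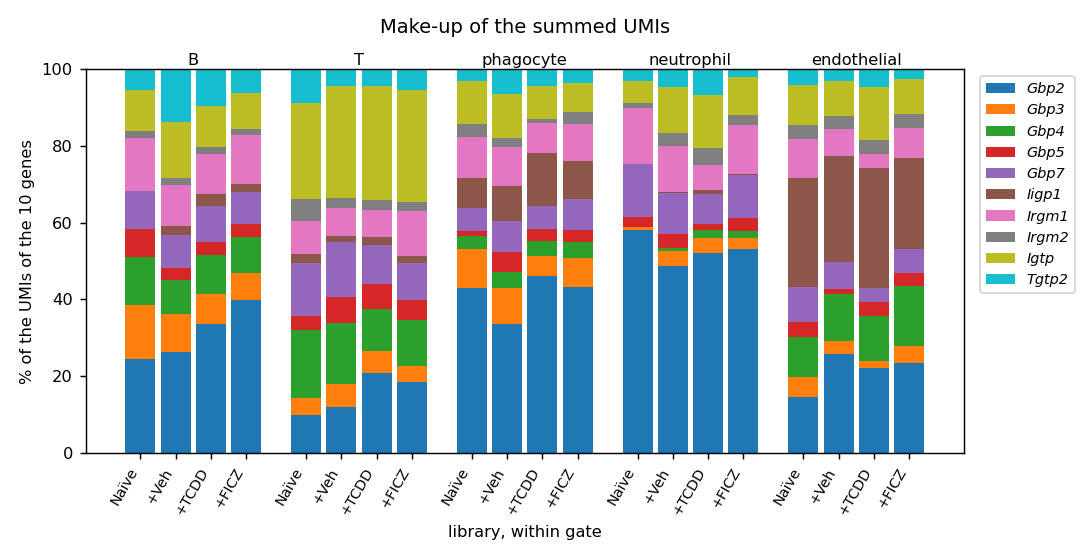
Share of the 10 genes' UMIs (%) held by each gene, as stacked bars for each library within 5 gates. Gbp2 fills 48.6% to 58.2% of the neutrophil bars, Igtp 25% to 29.9% of the T bars and Iigp1 23.8% to 31.2% of the endothelial bars; the endothelial bar of ConA+TCDD rests on 8 cells.

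In B cells the 4 libraries lay apart, in a gate whose cells changed in kind with ConA, as given below. Their summed level was 202 CPM (185 to 219) in Naïve, 285 (269.9 to 301) in ConA+Veh, 514 (484 to 545) in ConA+TCDD and 577 (554 to 599.9) in ConA+FICZ, from 533, 1329, 1093 and 2482 UMIs. None of the 4 intervals overlapped. ConA+Veh stood above Naïve by a log2 ratio of 0.50 (0.35 to 0.65). Relative to ConA+Veh the log2 ratio was 0.85 (0.73 to 0.97) with TCDD and 1.02 (0.92 to 1.11) with FICZ. These last 2 comparisons share the ConA+Veh library, so they are not independent of each other.

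Gbp2 had the largest part in the B-cell values. Its level was 49.5 CPM in Naïve, 74.9 in ConA+Veh, 173 in ConA+TCDD and 230.1 in ConA+FICZ, which gave log2 ratios over ConA+Veh of 1.20 (0.99 to 1.42) with TCDD and 1.62 (1.44 to 1.80) with FICZ. Without Gbp2 the summed B-cell log2 ratios over ConA+Veh were 0.70 and 0.72. Irgm1, a regulator needed for resistance to mycobacteria in mice, was at 27.6, 30.9, 52.7 and 73.2 CPM in the same order. Both genes were lowest in Naïve and highest in ConA+FICZ.

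By CPM, Gbp4 and Gbp7 differed with the ligands but hardly with ConA alone. Gbp4 was at 25.3 CPM in Naïve and 25.7 in ConA+Veh, then 52.2 in ConA+TCDD and 53.9 in ConA+FICZ. Gbp7 went from 19.7 and 24.0 CPM to 48.0 and 48.1. Gbp5, which promotes inflammasome assembly, was lower in ConA+Veh (9.01 CPM) than in Naïve (14.7), and higher with TCDD (16.9) and FICZ (18.6). Gbp3 moved least among the guanylate-binding proteins, at 28.0, 27.9, 40.4 and 40.9 CPM.

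Tgtp2 and Igtp showed the reverse order of contrasts. Tgtp2 was at 11.0 CPM in Naïve and 39.0 in ConA+Veh, a log2 ratio of 1.83 (1.26 to 2.45), but at 48.9 with TCDD and 36.3 with FICZ, where both log2 ratios over ConA+Veh, 0.32 (-0.04 to 0.68) and -0.11 (-0.42 to 0.21), had intervals that included 0. Igtp was at 21.6 CPM in Naïve and 42.0 in ConA+Veh, and at 55.9 and 54.1 with the ligands. Iigp1 was seen as a single UMI in Naïve B cells and as 32 in ConA+Veh, so that its log2 ratio of 4.18 ran from 1.60 to 9.53. The Iigp1 levels in the ConA libraries were 6.86, 16.9 and 13 CPM, higher with each ligand than in ConA+Veh. Irgm2 had few UMIs, between 10 and 37 per library, and levels of 3.78, 4.72, 9.4 and 8.6 CPM. By CPM, the B-cell data thus held genes that differed mainly between Naïve and ConA+Veh (Tgtp2, Igtp). Others differed mainly between ConA+Veh and the ligand libraries (Gbp2, Gbp4, Gbp7, Irgm1), and Iigp1 differed in both contrasts. The summed Naïve CPM depended on the deepest cells, as given below. With each cell thinned to 1000 UMIs, Gbp2 was found in 1.9%, 8.06%, 16.8% and 22.2% of B cells, so it differed with ConA too. Irgm1 was found in 1.8%, 4.62%, 5.87% and 8.84%, Gbp4 in 1.99%, 3.17%, 8% and 7.9%, and Gbp7 in 0.855%, 2.11%, 6.67% and 8.03%.

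**Figure D3:**
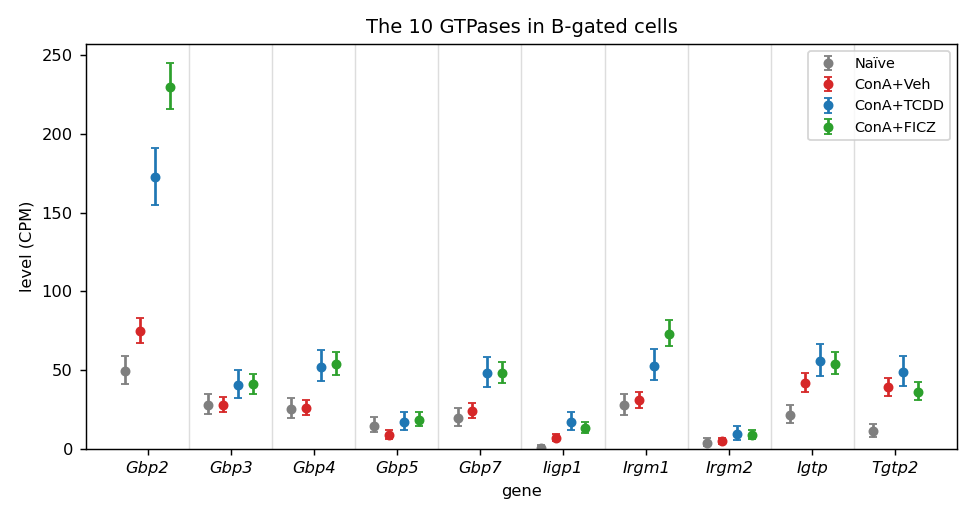
Level (CPM) of each of the 10 GTPases in B-gated cells, with a point per library and its exact 95% Poisson interval for counting error. Gbp2 climbs from 49.5 CPM in Naïve to 230.1 CPM in ConA+FICZ, Gbp4 and Gbp7 separate the ligand libraries from the other pair, and Tgtp2 and Igtp separate Naïve from the ConA libraries.

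Against all genes of the B gate, the counts were read as follows, with genes of at least 100 UMIs in both libraries together and a call at a 2-fold difference of CPM. For ConA+Veh over Naïve, 1 of 7 members that passed this minimum was at least 2-fold higher (Tgtp2), where 7.48% of the 6086 genes were, so the count was near the background. For ConA+TCDD over ConA+Veh it was 2 of 7 (Gbp2 and Gbp4) against 0.417% of 5512 genes, with Gbp7 just under 2-fold. For ConA+FICZ over ConA+Veh it was 5 of 8 (Gbp2, Gbp4, Gbp5, Gbp7 and Irgm1) against 0.785% of 6366 genes. Gbp7 lay just over 2-fold there, at nearly the same level as with TCDD. Gbp5 passed the minimum only with FICZ, where its level was highest. These counts therefore do not rank the ligands. With a minimum of 20 UMIs all 10 members entered. Of these, 3 (TCDD) and 5 (FICZ) were at least 2-fold higher, against 1.79% and 2.34% of all genes. The members' median log2 ratio was 0.30, 0.95 and 0.96 for the 3 comparisons, beside medians over all genes of -0.29, 0.04 and 0.03. With the ligands, 10 and 9 of the 10 lay above 0, where 54.6% (TCDD) and 55.1% (FICZ) of all genes did.

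The share of B cells with a UMI of any of the 10 genes gave the same order when each cell was thinned to 1000 UMIs. It was 11.9% in Naïve (9.98% to 14%), 26.8% in ConA+Veh (23.7% to 30.1%), 38.7% in ConA+TCDD (33.7% to 43.8%) and 42.8% in ConA+FICZ (39.3% to 46.5%). Unthinned, the shares were 24.1%, 64.8%, 73.1% and 74.5%. Erythroid cells, taken as a background that should hold little of this RNA, gave 0 of 18 cells in Naïve, with an interval up to 18.5%. They gave 12.5% in ConA+Veh (4.19% to 26.8%) and 28.1% in ConA+TCDD (17% to 41.5%). Their median depths were 1562, 1134 and 1225 UMIs against 2124, 4182 and 3420.0 in B cells. In ConA+TCDD the erythroid and B-cell intervals overlapped, and by level the erythroid gate there held 754 CPM of the family (604 to 929.9), above the 514 CPM of the B cells, against 215 CPM (123 to 349) in ConA+Veh. What the erythroid gate stands for, and the part of free RNA in the B-cell values, were not tested. Thinning left out 31, 65, 37 and 36 B cells. ConA+FICZ had 6 erythroid-gated cells and no background share was taken there, so its shares in B, T and NK cells were not set against one.

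The Naïve B-cell level depended on the deepest cells. Without the deepest 5% of cells of each library the Naïve level was 146 CPM and the log2 ratio of ConA+Veh over Naïve 1.08. Averaged over cells instead of UMIs, that ratio was 1.25. Hepatocyte markers in B cells summed to 57.9 CPM in Naïve, 65.6 in ConA+Veh, 1.88 in ConA+TCDD and 214 in ConA+FICZ. The part of this RNA in the ConA+FICZ result was not tested. The B gate also changed in kind with ConA. Cd55, a complement regulator looked at after its values were seen, was at 406 CPM in Naïve B cells and at 49.8 to 63.7 CPM in the ConA libraries, and Ighd, the IgD heavy chain, at 788 CPM and 273 to 432 CPM. The paper placed Naïve B cells mainly in a CD55+ cluster that was depleted in its ConA groups. The part of this change in the difference between Naïve and ConA+Veh was not tested.

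**Figure D4:**
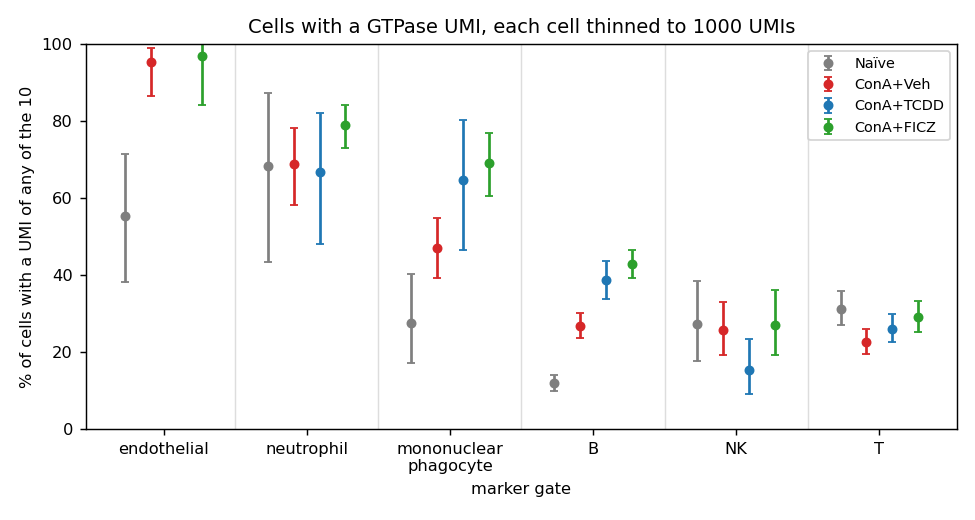
Share of cells (%) with a UMI of any of the 10 GTPases after each cell was thinned to 1000 UMIs, by gate and library, with exact binomial 95% intervals. The Naïve neutrophils rest on 19 cells, and the ConA+TCDD endothelial cells are left out. B cells climb from 11.9% (Naïve) to 42.8% (ConA+FICZ), and endothelial cells from 55.3% (Naïve) to 95.2% (ConA+Veh).

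T cells went the other way with ConA. Their summed level was 328 CPM in Naïve (302 to 355) and 207 in ConA+Veh (197 to 218), a log2 ratio of -0.66 (-0.80 to -0.52), with 232 CPM in ConA+TCDD and 260.4 in ConA+FICZ. The log2 ratios over ConA+Veh were 0.16 (0.05 to 0.27) with TCDD and 0.33 (0.23 to 0.43) with FICZ, and without Gbp2 they were 0.01 and 0.22. The depth of the T cells differed as well, with medians of 2750.0 UMIs in Naïve and 6943 in ConA+Veh. As mean UMIs of the 10 genes per cell, with no division by depth, the log2 ratio of ConA+Veh over Naïve was 0.83, higher in ConA+Veh, so the lower T-cell level is one relative to the cells' other RNA.

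Tgtp2 and Irgm2 had the lowest T-cell ratios of ConA+Veh over Naïve. Tgtp2 was at 29.2 CPM in Naïve, 9.32 in ConA+Veh, 9.91 in ConA+TCDD and 14.3 in ConA+FICZ. Irgm2 was at 18.5, 5.4, 5.98 and 6.27 CPM. By CPM, the Naïve level of each was the highest of the 4 and its interval overlapped that of none of the ConA libraries. With each cell thinned to 1000 UMIs, Tgtp2 was found in 2.84%, 2.05%, 1.86% and 2.8% of T cells. These intervals all overlapped, so the Naïve share of Tgtp2 did not stand apart. Irgm2 was found in 3.28%, 0.732%, 1.86% and 0.2%. The log2 ratios of ConA+Veh over Naïve were -1.65 (-2.19 to -1.10) for Tgtp2 and -1.78 (-2.48 to -1.07) for Irgm2. Igtp, the leading member in these cells, was at 81.9, 60.4, 69.2 and 75.9 CPM. Gbp5 was the only member above 0, at 0.27 (-0.42 to 1.02), where 43.6% of all genes of at least 20 UMIs lay above 0.

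In T cells Gbp2 differed with both ligands and Irgm1 with FICZ. Gbp2 was at 32.0 CPM in Naïve, 24.8 in ConA+Veh, 48.0 in ConA+TCDD and 48.2 in ConA+FICZ, so that both ligand libraries had a log2 ratio over ConA+Veh of 0.95 (0.68 to 1.23). Irgm1 was at 15 CPM in ConA+Veh, 16.4 in ConA+TCDD and 30.3 in ConA+FICZ, which gave 0.13 (-0.28 to 0.54) with TCDD and 1.02 (0.67 to 1.37) with FICZ. Gbp4 and Gbp7 were slightly lower with TCDD, at -0.35 each, unlike in B cells. Of the 8 members past 100 UMIs, 0 were at least 2-fold higher for ConA+Veh over Naïve (8.22% of 6814 genes) and 1, Tgtp2, was at least 2-fold lower (9.19% of these genes), which is near the background. With TCDD 0 were higher (0.241% of 7482 genes) and with FICZ 1, Irgm1 (0.411% of 7542 genes). The median log2 ratio of all 10 members was -0.72, 0.12 and 0.27, beside -0.13, -0.05 and -0.01 over all genes of at least 20 UMIs.

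Within the T gate, the CD8 cells had the lowest log2 ratio of ConA+Veh over Naïve, at -0.97 (-1.20 to -0.73), and they were 163 of the 473 T cells in Naïve and 337 of 699 in ConA+Veh. Their summed level was 302 CPM in Naïve (262 to 346), 154 in ConA+Veh (143 to 167), 162 in ConA+TCDD and 212 in ConA+FICZ. Tgtp2 in CD8 cells was at 41.9 CPM in Naïve and 5.45 in ConA+Veh, a log2 ratio of -2.94 (-3.81 to -2.09). CD4 cells were at 285, 259, 218 and 260.1 CPM, and the interval of their log2 ratio of ConA+Veh over Naïve, -0.13 (-0.46 to 0.21), included 0. The remaining T cells, with neither marker or with both, were at 370.3, 279, 347 and 351 CPM, with a log2 ratio of -0.41 (-0.62 to -0.20). After thinning, 31.3%, 22.7%, 26.1% and 29.2% of T cells had a UMI of the family (56.2%, 71%, 66.7% and 79.8% unthinned). In ConA+TCDD the thinned T-cell share did not exceed that of erythroid cells (28.1%). The erythroid level of 754 CPM was above the 232 CPM of the T cells. No expression is read from that T-cell share. After thinning, Igtp was found in 14% of these erythroid cells and Gbp2 in 5.26%. Over all cells of the library Gbp2 held 31.5% of the family's UMIs and Igtp 17%. What the erythroid gate stands for, and the part of free RNA in the T-cell level, were not tested.

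Mononuclear phagocytes held more of the family in both ligand libraries than in ConA+Veh. Their level was 748 CPM in Naïve (655 to 851), 752 in ConA+Veh (703 to 803), 1930.1 in ConA+TCDD (1790.3 to 2078) and 1359 in ConA+FICZ (1283 to 1438). The log2 ratio over ConA+Veh was 1.36 (1.21 to 1.50) with TCDD and 0.85 (0.73 to 0.98) with FICZ, whereas ConA+Veh over Naïve gave 0.01 (-0.20 to 0.22). The ConA+TCDD value came from 35 cells, and with gates set on cells thinned to 1000 UMIs it was 0.48, with 7 of the 10 members then below 0, among them Iigp1 (-1.18), Igtp (-0.72), Tgtp2 (-0.65), Gbp4 (-0.51) and Irgm1 (-0.43). With FICZ it was 0.95, and 3 members were below 0. The share of all genes below 0 under these gates was not taken, so both counts stand without a background. The intervals of both ligand libraries lay above those of Naïve and ConA+Veh.

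Gbp2 held the most UMIs of the family in these cells in every library, and Gbp2 and Iigp1 had the highest ratios with TCDD under the gates as reported. Gbp2 was at 321 CPM in Naïve, 252 in ConA+Veh, 891 in ConA+TCDD and 586 in ConA+FICZ. Iigp1, which disrupts the vacuole membrane of Toxoplasma, was at 57.8, 67.9, 265 and 134 CPM. Their log2 ratios of ConA+TCDD over ConA+Veh were 1.82 (1.59 to 2.05) and 1.97 (1.52 to 2.41). Gbp7 was at 44.9, 62.0, 120.3 and 112 CPM and Irgm1 at 80.3, 76.4, 150.4 and 132 CPM, both higher in each ligand library than in ConA+Veh. Igtp and Tgtp2 were higher with TCDD (167 and 84.7 CPM) but near ConA+Veh (86.6 and 48.4 CPM) with FICZ (105 and 48.5 CPM).

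Under the gates as reported, all 10 members were above 0 in phagocytes with each ligand, unlike with gates set at 1000 UMIs. Of all genes of at least 20 UMIs, 43.9% (TCDD) and 55.7% (FICZ) were above 0 under the gates as reported. The members' medians were 0.95 (TCDD) and 0.82 (FICZ), beside -0.09 and 0.06 over these genes. Past 100 UMIs, 2 of 6 members, Gbp2 and Iigp1, were at least 2-fold higher with TCDD (2.1% of 2242 genes) and 1 of 7, Gbp2, with FICZ (0.948% of 2954 genes). For ConA+Veh over Naïve it was 0 of 4 (9.32% of 2210 genes). Thinned shares of cells with a UMI of the family were 27.7%, 47%, 64.7% and 69.2%, and 55.9%, 84.6%, 91.4% and 86.4% unthinned.

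The make-up of the phagocyte gate differed between libraries. Cells with UMIs of at least 2 of C1qa, C1qb and C1qc, genes of Kupffer cells and other tissue macrophages, were 14.7% of the gate in Naïve, 67.4% in ConA+Veh, 40% in ConA+TCDD and 71.4% in ConA+FICZ. The C1q-positive cells had 1565, 865, 3018 and 1467 CPM of the family, and the remaining cells 330.1, 519.7, 1612 and 1078 CPM. The ligand libraries lay above ConA+Veh in both, with log2 ratios of 1.80 and 1.63 for TCDD. ConA+Veh over Naïve was -0.86 in the C1q-positive cells, where Naïve had 10 cells, and 0.65 in the others.

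Neutrophils held high levels in every library. The sum was 3246 CPM in Naïve (2759.8 to 3794), 1399 in ConA+Veh (1284 to 1522), 2158 in ConA+TCDD (1918 to 2419.9) and 2853 in ConA+FICZ (2726 to 2985), from 23, 102, 42 and 254 cells. ConA+Veh relative to Naïve gave a log2 ratio of -1.21 (-1.47 to -0.95). The ratios over ConA+Veh were 0.63 (0.42 to 0.83) with TCDD and 1.03 (0.89 to 1.17) with FICZ. Gbp2 was at 1890.2, 680.5, 1127 and 1514 CPM. Irgm1 was at 473, 169, 139.9 and 359 CPM and Gbp7 at 452, 151, 169 and 319 CPM. By CPM these genes were thus high in Naïve and ConA+FICZ and low in ConA+Veh and ConA+TCDD. After thinning to 1000 UMIs, Irgm1 was found in 31.6%, 30%, 18.2% and 30.8% of neutrophils. Gbp7 was found in 36.8%, 21.1%, 24.2% and 24.6%, so neither share followed that order. Igtp was at 185, 166, 295 and 285 CPM.

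The neutrophil values depended on which cells were counted. The thinned share with a UMI of the family was 68.4%, 68.9%, 66.7% and 79% and showed no fall with ConA, and unthinned it was 73.9%, 93.1%, 81% and 91.3%. Averaged over cells, the log2 ratio of ConA+Veh over Naïve was -0.41, and with at least 3 markers the ratio of ConA+TCDD over ConA+Veh was 0.11. Past 100 UMIs, 1 of 1 member was at least 2-fold lower for ConA+Veh over Naïve (15.7% of 591 genes). With TCDD 0 of 2 were higher (1.45% of 692 genes) and with FICZ 3 of 4, Gbp2, Gbp7 and Irgm1 (15.2% of 1272 genes). Gbp7 and Irgm1 passed this minimum only with FICZ. At a minimum of 20 UMIs, 2 of 8 were higher with TCDD (3.87% of all genes) and 4 of 9 with FICZ (15.1%). Hepatocyte markers summed to 666 CPM in the ConA+FICZ neutrophils and to 0 to 103 CPM in the others, and their part in the FICZ value was not tested.

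**Figure D5:**
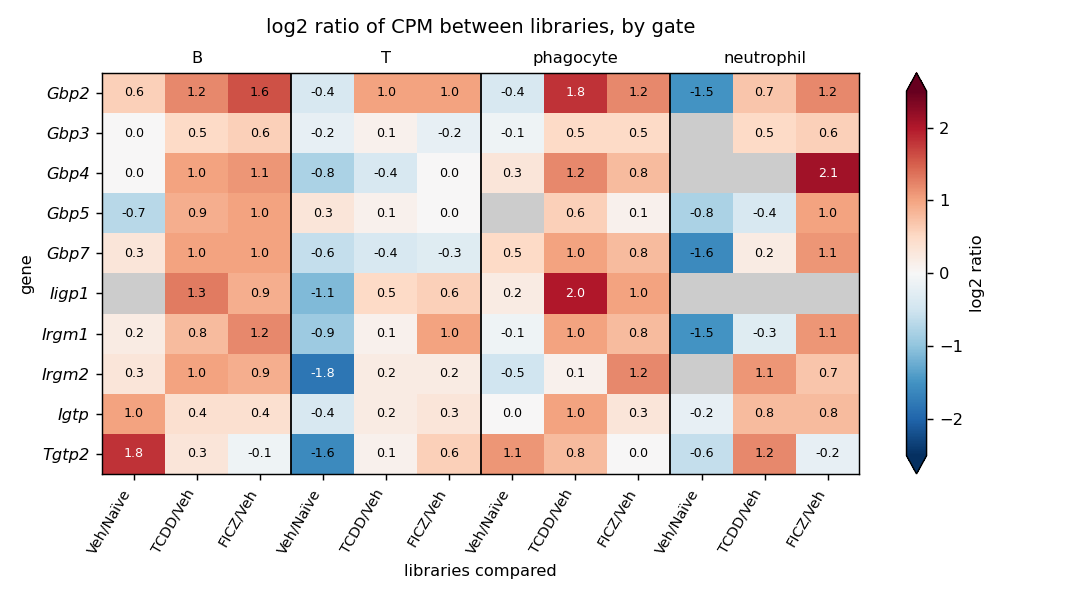
Log2 ratio of CPM between pairs of libraries for each GTPase in 4 gates, red for higher and blue for lower in the library named first; grey cells had fewer than 20 UMIs in both libraries together or 3 or fewer in either. Gbp2 is red in every ligand column, from 0.73 (neutrophils, TCDD) to 1.82 (phagocytes, TCDD). For T cells in ConA+Veh over Naïve 9 of 10 genes are blue, where 43.6% of all genes lay above 0.

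Endothelial cells had the highest family level of the gates after ConA. The sum was 2170.2 CPM in Naïve (1924 to 2439), 3345 in ConA+Veh and 4380.1 in ConA+FICZ (4059.8 to 4719), so that ConA+Veh stood above Naïve by 0.62 on the log2 scale (0.43 to 0.82) and ConA+FICZ above ConA+Veh by 0.39 (0.24 to 0.53). The 8 ConA+TCDD cells gave 3383 CPM (2778 to 4081). Gbp2 went from 316 CPM in Naïve to 864 in ConA+Veh, and Iigp1 (chromosome 18, 60376027 to 60392634, plus strand) from 616 to 926 CPM. After thinning, 55.3% of Naïve cells had a UMI of the family, 95.2% in ConA+Veh and 97% in ConA+FICZ (69%, 100% and 97.5% unthinned). The gate changed in kind as well: Clec4g, a marker of sinusoidal endothelium, was found in 83.3% of its Naïve cells, 2.94% in ConA+Veh and 5% in ConA+FICZ, and hepatocyte markers summed to 1152 CPM in ConA+FICZ against 31 to 154 CPM elsewhere. The part of these in the result was not tested.

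NK cells held few UMIs of the family, between 77 and 217 per library. Their sums were 380.2 CPM in Naïve, 304 in ConA+Veh, 233 in ConA+TCDD and 405 in ConA+FICZ. The log2 ratio over ConA+Veh was -0.38 (-0.73 to -0.05) with TCDD and 0.41 (0.12 to 0.70) with FICZ. This was the gate where the 2 ligand libraries lay on opposite sides of ConA+Veh. With gates set at 1000 UMIs the levels were 305 CPM in ConA+Veh, 291 in ConA+TCDD and 375 in ConA+FICZ. After thinning, 15.3% of the ConA+TCDD NK cells had a UMI of the family, against 28.1% of erythroid cells, which held 754 CPM. The part of free RNA in the NK values was not tested. Gbp7 was at 79.0, 74.4, 53.7 and 108 CPM. Past 100 UMIs only Gbp7 entered, and only for FICZ.

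Among the other genes of the pathway, the ligand gene was highest in Naïve and lowest in ConA+FICZ in the T and NK gates. Ifng was at 99.9 CPM in Naïve T cells, 20.9 in ConA+Veh, 27.0 in ConA+TCDD and 13.5 in ConA+FICZ, and at 696, 261, 281 and 198 CPM in NK cells. The GTPase sum, in contrast, was higher in ConA+FICZ than in ConA+Veh in both gates. Ifngr1 in T cells was at 266, 194, 163 and 128 CPM and Jak1 at 350.2, 212, 174 and 173 CPM. Irf1 in B cells was at 92.6, 77.0, 118 and 92.0 CPM.

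Of the listed pathway genes in B cells, 0 of 4 receptor and kinase genes and 0 of 6 transcription factor genes past 100 UMIs were at least 2-fold higher in any of the 3 comparisons. Of all B-gate genes 7.48%, 0.417% and 0.785% were, so these counts were near the background. Ciita, the activator of MHC class II genes, was lower in ConA+Veh than in Naïve (47.6 and 103 CPM). Of the other interferon-gamma targets, the proteasome subunits Psmb8 and Psmb9 followed ConA, at 393, 701, 604 and 654 CPM and at 186, 401, 329 and 393 CPM. The chemokine Cxcl10 was at 10.2, 9.01, 33.4 and 9.53 CPM, highest in ConA+TCDD. Of the 4 feedback inhibitors 1, Usp18, was at least 2-fold higher in ConA+Veh than in Naïve, where 7.48% of all genes were. With either ligand 0 differed 2-fold. Of all genes 0.417% (TCDD) and 0.785% (FICZ) were higher, and 1.05% and 0.833% lower. The IRG family member Ifi47 was at 71.5, 184, 217 and 238 CPM.

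In T cells 0 of the listed pathway genes past 100 UMIs were at least 2-fold higher in any of the 3 comparisons, Irgm1 being the exception among the members. Of all T-gate genes 8.22%, 0.241% and 0.411% were. Of the other interferon-inducible GTPases, 3 of 4 past the minimum, Gbp8, Gbp9 and 9930111J21Rik2, were at least 2-fold lower in ConA+Veh than in Naïve, where 9.19% of all genes tested were. In phagocytes Cxcl10 was at 125, 408, 1006 and 365 CPM, highest in ConA+TCDD, as the GTPase sum was. Of the phagocyte feedback inhibitors 0 of 3 past the minimum differed 2-fold with either ligand. Of all phagocyte genes 2.1% (TCDD) and 0.948% (FICZ) were higher, and 4.68% and 0.609% lower. In endothelial cells Cxcl9 was at 869.6 CPM in Naïve and 2331 in ConA+Veh. Of the AhR targets, Tiparp differed less than 2-fold with either ligand in B cells, T cells, phagocytes and neutrophils. Cyp1a1, the most AhR-responsive gene, was at 185 CPM in Naïve endothelial cells, 3.66 in ConA+Veh, 435 in ConA+TCDD and 595 in ConA+FICZ. These values came from 42, 68, 8 and 40 cells. Clec4g was found in 83.3%, 2.94%, 0% and 5% of them, and the part of this change in kind was not tested. In the 187 hepatocyte-gated cells of ConA+FICZ, Cyp1a1 had 0 UMIs among 285496, with an interval up to 12.9 CPM. These cells had a median of 941 UMIs and a median mitochondrial share of 0%. Whether they were whole cells was not tested, and the other libraries held too few for a comparison. No lack of response in hepatocytes is read from this.

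The 10 genes did not vary as a block. Across 28 sums of cell type and library, each of at least 20 cells, the Spearman correlation of a member with the sum of the other 9 was highest for Irgm1 (0.91) and Igtp (0.85) and lowest for Iigp1 (0.55) and Gbp4 (0.32). Gbp4 and Tgtp2 correlated at 0.12, and Gbp2 and Irgm1 at 0.89. Among 7879 other genes, those most like the summed family were Eif2ak2, Xaf1 and Rtp4 (0.89 each), and Ifitm2 and Lgals9 (0.87 each). Sums from the same library share its depth and free RNA, and sums from a cell type share its other genes, so these coefficients are descriptions over 28 points from 4 libraries and 9 gates.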

How the data were processed

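Libraries were prepared with the 10x Genomics Chromium 5′ kit, and per the labels and the study's methods the authors made the deposited count matrices with Cell Ranger 3.0.2 on mm10. Each matrix holds raw UMI counts per gene and cell, already limited to called cells, of at least 500 UMIs. Depth ran from 5952445 UMIs (Naïve) to 19252211 (ConA+Veh).

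From the counts, computed with Python 3.11.15, numpy 2.4.6 and scipy 1.17.1, a cell was gated when it had a UMI of at least 2 markers of 1 list (hepatocyte and erythroid also at least 5% of its UMIs). Cells that met several lists (2.06% to 6.69% per library) were left out, apart from T cells with NK markers, and no doublet caller was run. UMIs were summed per gate and library and divided by the gate's total (CPM). Levels carry exact Poisson intervals, ratios exact conditional binomial intervals and shares exact Clopper-Pearson intervals, all for counting error only. Shares of cells were computed after thinning to 1000 UMIs. UMIs of 1 library are no replicates, so no test was run. Ratio intervals and the 2-fold call were tried on simulated sums drawn as Poisson counts. Such counts hold no clustering of UMIs in cells and no difference between mice, so the simulation cannot speak to either. Text names all 10 members, genes of fixed pathway lists and the 5 genes most like the sum. Members and lists were chosen with earlier results of these data known. Alternatives changed the markers needed, the gating depth, the handling of cells in 2 gates, the cell filter, the totals and the averaging; the C1q split and the sum without Gbp2 were chosen after seeing the data. Free RNA was not subtracted.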

Additional observations from a re-analysis of the deposited data

Results flagged for a closer look

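The log2 ratio of the summed 10 GTPases between ConA+Veh and Naïve had intervals on opposite sides of 0 in different gates. It was 0.50 in B cells and 0.62 in endothelial cells, but -0.66 in T cells and -1.21 in neutrophils. The difference between these gates was not tested, since each group has 1 library.

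For ConA+TCDD over ConA+Veh, the summed ratio was 0.85 in B cells, 0.16 in T cells, 1.36 in mononuclear phagocytes and 0.63 in neutrophils. In NK cells it was -0.38, from 113 and 217 UMIs. With gates set at 1000 UMIs the NK levels were 291 CPM in ConA+TCDD and 305 in ConA+Veh. The difference between gates was not tested either.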

How the results depend on the processing

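No paired analysis was possible because each group has 1 library; for the same reason no library could be left out. All values here are log2 ratios of the summed 10 GTPases unless a gene is named. A value counts as moved when it left the counting interval of the value in the report, and the cause of each move was not tested. The filter of cells on genes and mitochondrial UMIs moved none of the 15 summed ratios, and it removed 150 to 464 cells per library.

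For ConA+Veh over Naïve, B cells gave 0.68 with gates set at 1000 UMIs, 1.25 as a mean over cells, 1.72 as mean UMIs per cell and 1.08 without the deepest 5% of cells. T cells gave -0.28 as a mean over cells and turned to 0.83 as mean UMIs per cell. NK cells, at -0.32, gave 0.49 as mean UMIs per cell. Phagocytes gave -0.42 with cells in 2 gates added, 0.51 as a mean over cells, 0.56 as mean UMIs per cell, -0.24 without the deepest 5%, 0.23 without Gbp2, -0.86 with C1q and 0.65 without it. Neutrophils gave -0.76 with 3 markers, -0.60 with gates at 1000 UMIs, -0.41 as a mean over cells, -0.36 as mean UMIs per cell, -0.55 without the deepest 5% and -0.92 without Gbp2.

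For ConA+TCDD over ConA+Veh, B cells gave 0.68 with 3 markers, 0.53 with gates at 1000 UMIs, 1.09 as a mean over cells, 0.71 as mean UMIs per cell, 0.97 without the deepest 5% and 0.70 without Gbp2. T cells gave 0.03 with 3 markers, 0.04 as mean UMIs per cell and 0.01 without Gbp2. Phagocytes gave 0.89 with 3 markers, 0.48 with gates at 1000 UMIs, 0.87 with cells in 2 gates added, 1.99 as mean UMIs per cell, 1.06 without Gbp2, 1.80 with C1q and 1.63 without it. Neutrophils gave 0.11 with 3 markers, 0.26 with cells in 2 gates added, 0.32 as a mean over cells and 0.38 as mean UMIs per cell.

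For ConA+FICZ over ConA+Veh, B cells gave 1.12 as a mean over cells and 0.72 without Gbp2. T cells gave 0.21 with gates at 1000 UMIs, 0.50 as mean UMIs per cell and 0.22 without Gbp2. Phagocytes gave 0.68 with 3 markers, 0.70 as mean UMIs per cell, 1.08 without the deepest 5%, 0.63 without Gbp2 and 1.05 without C1q. Neutrophils gave 0.70 with 3 markers, 0.50 with gates at 1000 UMIs, 0.87 with cells in 2 gates added, 0.51 as a mean over cells, 0.88 with totals without ribosomal and mitochondrial genes, 0.47 as mean UMIs per cell and 0.58 without the deepest 5%.

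Single genes turned as follows. As mean UMIs per cell for ConA+Veh over Naïve, Gbp5 gave 0.51 in B cells; in T cells Gbp4 gave 0.65, Gbp7 0.88, Iigp1 0.38, Irgm1 0.56 and Igtp 1.05; in phagocytes Gbp2 gave 0.21. As a mean over cells, Igtp gave 0.03 in T cells and Gbp2 0.26 in phagocytes. With gates at 1000 UMIs, phagocytes of ConA+TCDD over ConA+Veh gave -0.51 for Gbp4, -1.18 for Iigp1, -0.43 for Irgm1, -0.72 for Igtp and -0.65 for Tgtp2, and those of ConA+FICZ gave -0.08 for Gbp4.

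The order of the B, T, NK, phagocyte and neutrophil gates by summed level stayed as reported in every library with 3 markers, gates at 1000 UMIs, cells in 2 gates added and the cell filter. As a mean over cells 2 gates changed places in Naïve, ConA+Veh and ConA+TCDD; with totals without ribosomal and mitochondrial genes it was 2, 2 and 4 gates in these libraries, and without the deepest 5% it was 2 in ConA+TCDD. As mean UMIs per cell it was 2 gates in Naïve and ConA+Veh and 4 in ConA+TCDD and ConA+FICZ. With a minimum of 20 UMIs the share of all genes at least 2-fold higher than in ConA+Veh rose, for ConA+TCDD and ConA+FICZ, to 1.79% and 2.34% in B cells, 1.21% and 1.38% in T cells and 4.35% and 3.81% in phagocytes, and to 3.87% for ConA+TCDD in neutrophils. Of the 10 members, 3 and 5 were then 2-fold higher in B cells, 0 and 1 in T cells and 3 and 2 in phagocytes.

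Thinned to 500 UMIs, cells holding the family made up 6.83% of B cells in Naïve, 17% in ConA+Veh, 25% in ConA+TCDD and 25.8% in ConA+FICZ. In the same order it was 16.3%, 11.4%, 15.2% and 13% in T cells, 20.6%, 30.3%, 65.7% and 43.5% in phagocytes and 52.2%, 53.9%, 54.8% and 61.4% in neutrophils.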

Other observations

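Some gates that belong in no comparison also held UMIs of the family. The 187 hepatocyte-gated cells of ConA+FICZ, with a median of 941 UMIs and a median mitochondrial share of 0%, summed to 809 CPM of the 10 genes (708 to 920.5). Iigp1 took 41.6% of those UMIs and Igtp 19.9%, whereas Gbp4 and Gbp5 had 0 UMIs among 285496, with an interval up to 12.9 CPM each. Other libraries had between 0 and 6 such cells.

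Erythroid-gated cells held 0 of 36623 UMIs in Naïve, and their summed log2 ratio of ConA+TCDD over ConA+Veh was 1.81 (1.03 to 2.68). In ConA+TCDD the leading genes there were Igtp (217 CPM), Tgtp2 (191 CPM) and Irgm1 (113 CPM), with Gbp2 at 95.3 CPM and Gbp4 and Iigp1 at 0 UMIs. In ConA+Veh these cells held 7 UMIs of Tgtp2 and 0 of Gbp2, the gene that took 25.4% of the family's UMIs over all cells of that library.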
